A study of Rattus norvegicus with 42 samples.

Results

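The genes described here are 50 of the 13776 listed in the count tables of a rat pituitary cell line, selected on their measured values in wild-type cells: their read counts were higher at every one of 3 late times than at 10 h. The rule used CPM, the reads of a gene per 1000000 reads counted in its library, with 2 very abundant genes left out of the totals. A gene was a member (0.363% of those the rule could test) if its wild-type mean at 22, 26 and 30 h was each at least 1.6 times the mean at 10 h and if the mean at 30 h was at least 5 CPM. The wild-type values at 10, 22, 26 and 30 h therefore chose the members and are given as a description, with no test. The wild-type libraries at 14, 18 and 34 h and all knockout libraries played no part in the choice.

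The cells were GH4C1, an established rat somatolactotroph line that secretes prolactin and growth hormone, grown in HamF10 medium with sera. Wild-type (WT) cells, which received no treatment, were compared with Neat1 -/- cells made by CRISPR-Cas9 (KO). Fresh medium was given at time 0, and RNA was taken from T10 to T34, the number being hours, at steps of 4 h. The 7 times, the 2 genotypes and 3 replicates gave 42 libraries in 14 groups. The labels do not say whether the replicates were separate cultures, so the p-values measure only the spread between these libraries, which may be technical. They also do not say whether the KO cells are 1 clone. A difference between the genotypes cannot be told apart from any other difference between the WT and KO cells, or in how their libraries were handled.

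Neat1 is a long noncoding RNA that forms the scaffold of paraspeckles, nuclear bodies that hold RNA-binding proteins and can retain RNAs in the nucleus. In cultured pituitary cells the number of paraspeckles is known to vary over the day, and a change of medium is a common way to bring cultured cells into a shared phase. Serum in fresh medium also switches on early response genes, whose products in turn act on later genes. Which of these routes, if any, acts on the members was not tested.

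The deposited tables carry Ensembl identifiers only. Of these, 0 were found in the table of rat gene names at hand, so the members are described by their values, the targeted gene was not checked, and markers of pituitary or other cell types could not be read. In such bulk libraries a fall in the number of cells that express a gene and less of its RNA in each cell cannot be told apart.

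The libraries held 34.5 M to 68.8 M counted reads in WT and 45.9 M to 60.5 M in KO, where M stands for 1000000 reads. The 2 genes kept out of the CPM totals took 17.6% to 21.2% of all counts in KO and 0.0308% to 0.335% in WT. All 42 pairs of replicates differed by more than counting noise (chi-square per degree of freedom of at least 5.32 over genes with at least 50 counts). Replicate 1 of WT T34 stood apart from its group. In it, 10 members were above 1.5 times the higher of the other 2 libraries and 11 were below the lower of them divided by 1.5. Among all other genes, 27.5% were above and 16.0% below those limits. The numbers of calls in each test that uses WT at T34 are therefore given with and without that library. Counts that combine such tests, and other WT values at T34, include it unless stated.

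In WT, the members had low to high read counts at T10, from a mean of 1.33 to 308 CPM, and from 5.03 to 524 CPM at T30. Only 9 of the 50 had a lowest ratio of at least 2, while 32 had one under 1.8. The 3 members just inside the threshold had lowest ratios of 1.62, 1.63 and 1.64, and the 3 genes just outside had 1.591, 1.592 and 1.599. A further 65 genes passed the ratios but lay under 5 CPM at T30. The 50 are thus mostly genes of modest rise that lie close to the threshold.

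The median member in WT had a log2 ratio to T10 of 0.85 at T22, 0.91 at T26 and 0.93 at T30, a little under a doubling. These are the times the rule used. In 47 of the 50, each of the 9 libraries from T22 to T30 was above all 3 libraries of T10, against 12% of all genes. That share is fixed largely by the rule and is given only to describe the spread.

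At the WT times that the rule did not use, the members lay on the same slope. The median member was at 1.34 times its T10 level at T14, at 1.62 times at T18 and at 1.96 times at T34. At T14, 49 of the 50 means were above that of T10, and at T18 all 50 were. At least 1.6-fold above T10 were 5 members at T14, 26 at T18 and 43 at T34, against 0.741%, 1.26% and 11.5% of all genes. The median log2 ratio to T10 in the 3 WT T34 libraries was 0.86, 0.92 and 0.998, and 0.95 for the mean of the latter 2, so replicate 1 hardly moved the median, while the SD over its members was 0.92 against 0.37 in each of the others. These ratios share the T10 libraries with the rule, so no test is given for them. Read against T10, most of the difference seen at the later times was in place at T18. The rule chose genes with a low mean at T10, which can raise these ratios, so this timing is a description only.

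**Figure D1:**
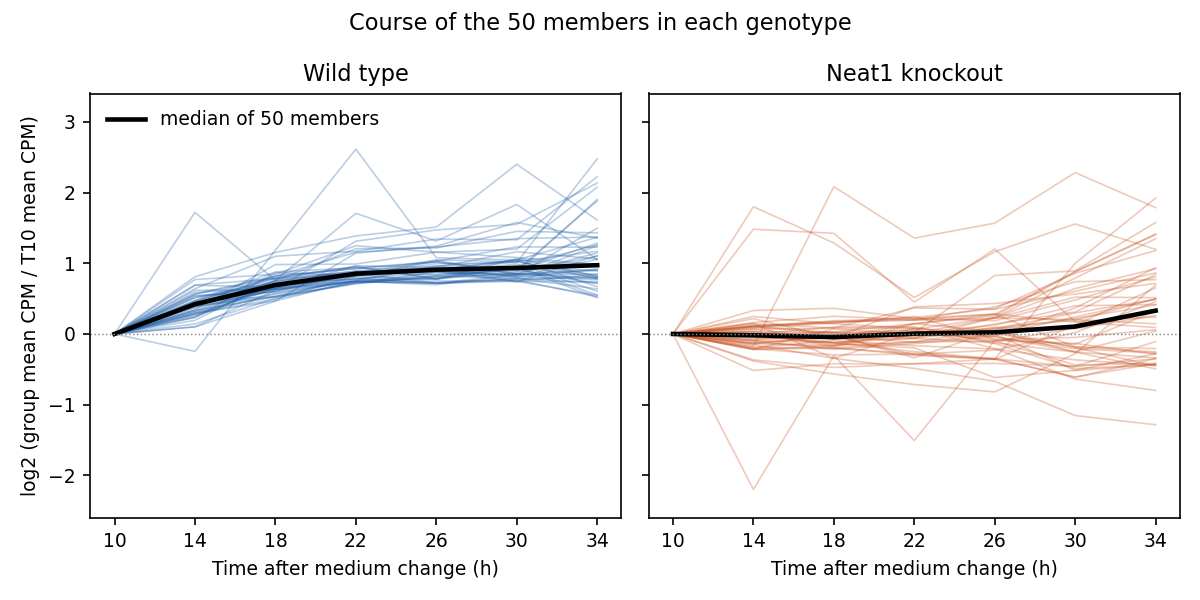
Log2 ratio of each member's mean CPM to its T10 mean (y axis) against hours after the medium change (x axis), in wild type (left) and Neat1 knockout (right), for the 50 members (thin lines) and their median (thick line). The WT median climbs from 0.42 at 14 h to 0.97 at 34 h, while the KO median stays between -0.04 and 0.02 up to 26 h and reaches 0.33 at 34 h; up to 26 h the KO lines beyond 1 in either direction are the 3 members with uneven replicates and the member nearly absent in KO.

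The summed level of the members was taken in each library. The 8 members with the highest WT mean at T30 made up 73.6% of the sum in WT at T10 and 63.9% in KO, so the sum mainly follows these few. In the 3 WT libraries of T10 the sum was 1719, 1714 and 1737 CPM. At the next times it was 2301 ± 30.8 CPM (T14; mean ± SD, n = 3), 2709 ± 48.2 (T18) and 3085 ± 20.6 (T22). It was 3122 ± 30.7 CPM at T26, 3240 ± 31.8 at T30 and 3232 ± 203 at T34, where replicate 1 held 3004 and the others 3301 and 3392. The sums at T10, T22, T26 and T30 follow from the rule, and those at T14 and T18 lay between the sums of T10 and T22.

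In KO the sum was 1742 ± 7.68 CPM at T10, and it was 1683 ± 24.2, 1670 ± 4.63, 1667 ± 16.1 and 1699 ± 44.5 at T14, T18, T22 and T26 (n = 3 each). It was 1980 ± 197 CPM at T30, where replicate 1 held 1759 and the other libraries 2140 and 2042, and 2389 ± 61.2 at T34. The KO sum thus stayed near its T10 level up to 26 h and was higher at 34 h, though still below the WT sum at T18. The near-equal sums of both genotypes at T10 hold opposite differences. The 8 highest members summed to 1268 ± 10.2 CPM in WT and 1113 ± 4.56 in KO at T10, and the other 42 to 456 ± 3.43 in WT and 629 ± 4.43 in KO. Those 42 alone reached 838 ± 23.1 CPM in WT at T22, against 615 ± 15.1 in KO.

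**Figure D2:**
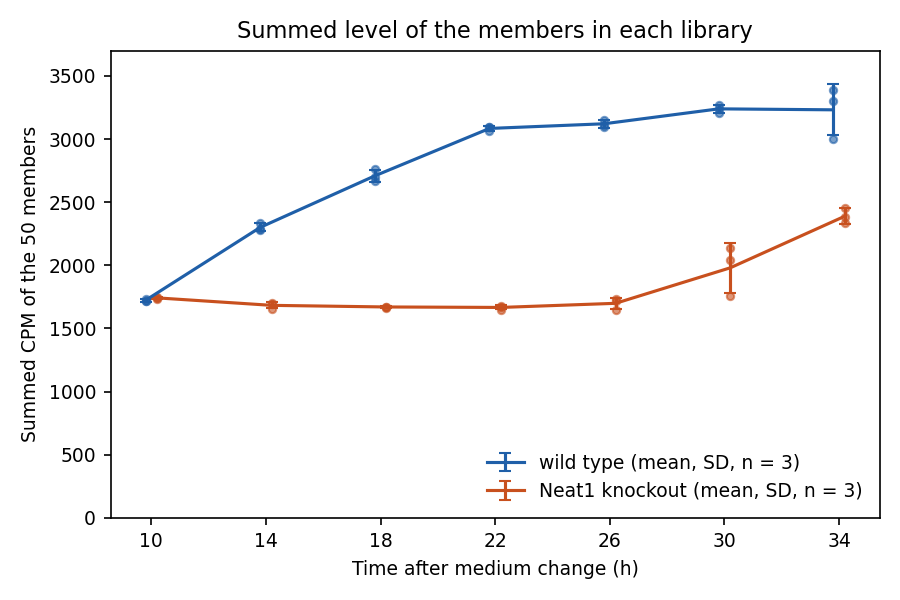
Summed CPM of the 50 members (y axis) against hours after the medium change (x axis); points are libraries, lines the group means and bars the SD (n = 3). The sums at 10 h are close (means of 1723 and 1742 CPM) although single members differ, WT reaches 3085 by 22 h, and KO is still at 1699 at 26 h and reaches 2389 at 34 h.

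A test that uses no library of the rule is possible in WT between T14 and the later unused times. Genes chosen for a late rise in WT are still more likely than others to rise there. From T14 to T34, 38 of the 50 members rose and 0 fell (edgeR quasi-likelihood test, adjusted p under 0.05 over all 13776 genes), where 21.7% of all genes rose and 12.9% fell. At an unadjusted p under 0.05, 39 were higher and 0 lower, and DESeq2 called 38 and 0 (22% and 15% of all genes). How many of all genes passed without adjustment was not counted, here or below. The median log2 fold change of the members was 0.59, against 0.03 for all genes. Without replicate 1 of WT T34, 43 rose and 0 fell, against 11.6% and 11.9% of all genes. All 3 libraries of T34 were above all 3 of T14 in 32 members (9.9% of all genes), and replicates 2 and 3 alone were in 45 (18.3%). When the spread was estimated from the WT T14 and T34 libraries alone, 0 members were called by edgeR, as were 0% of all genes, while 32 members had an unadjusted p under 0.05. That fit without replicate 1 of T34 called 36 higher and 0 lower (3.26% and 4.94% of all genes).

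From T14 to T18 in WT, 0 members passed the edgeR test after adjustment, as did 0.0145% of all genes upward and 0.0508% downward. Before adjustment the members lay to one side. In 48 of 50 the fold change was above 0, the median was 0.26 on the log2 scale against 0.00 for all genes, and 24 were higher and 0 lower at an unadjusted p under 0.05. The shares of all genes above 0 and at that unadjusted p were not counted, so these 2 counts only describe the members. DESeq2 called 4 members higher and 0 lower, against 0.233% and 0.241% of the 12433 genes it tested. The edgeR fit without replicate 1 of WT T34 called 11 higher and 0 lower (0.653% and 0.646% of all genes). All 3 libraries of T18 lay above all 3 of T14 in 35 members (8.7% of all genes) and below them in 0 (6.58%).

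In KO the members changed in both directions over the times that define them in WT, and most were not called. For the mean of KO T22, T26 and T30 against KO T10, 7 members rose and 6 fell (edgeR, 3.72% and 3.99% of all genes). The median log2 fold change was 0.03, against 0.00 for all genes, and single members ranged from -0.78 to 1.73. The upper end is a member with uneven replicates that was not called (1.73 ± 0.92, ± SE, edgeR adjusted p = 0.313), and the largest called rise was 0.47. The 9 KO libraries of T22 to T30 were all above the 3 of T10 in 6 members and all below in 4, against 5.94% and 4.25% of all genes. The rule applied to the KO table instead of the WT table was met by 8 genes (0.0581% of those it could test), of which 1 was a member, and by 0 members without KO replicate 1.

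Taken by time, the number of members called in KO grew and went both ways. At T14, 0 members were called against T10 (edgeR; 2 higher and 4 lower at an unadjusted p under 0.05, 0 by DESeq2), as were 0.0145% of all genes upward and 0.0218% downward. At T18, 0 were called by edgeR (2 higher and 6 lower unadjusted, 1 lower by DESeq2), against 0.218% and 0.319% of all genes. At T22, 0 rose and 2 fell (3 and 8 unadjusted, 0 and 3 by DESeq2), against 0.508% and 0.82%. DESeq2 called 0.429% of all genes higher and 0.588% lower at T18, and 0.973% and 1.21% at T22. At T26, 2 rose and 4 fell, against 2.21% and 2.42%. These early counts depend on how the spread is estimated. Without replicate 1 of WT T34, which enters the shared estimate, 0 rose and 1 fell at T14 (0.16% and 0.269% of all genes), 0 rose and 3 fell at T18 (1.3% and 1.26%), 1 rose and 7 fell at T22 (2.37% and 2.64% of all genes) and 5 rose and 8 fell at T26 (7.81% and 6.8%). With only the KO groups compared in the fit, which tested 49 members, 0 rose and 3 fell at T14 (0.321% and 0.539% of all genes) and 2 rose and 10 fell at T18 (3% and 2.79%). In that fit 3 rose and 8 fell at T22 (5.05% and 5.02%), and 5 rose and 9 fell at T26 (8.06% and 7.91%). Without replicate 1 of KO T10, 0 rose and 3 fell at T26 (1.39% and 1.71% of all genes). The same numbers were found without replicate 1 of KO T26 (1.12% and 1.51%). The count at T22 was 0 or 1 without any single replicate of KO T10 or without replicate 1 or 2 of KO T22. In those fits 0.595% to 0.74% of all genes were called in either direction.

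At T30, 14 members rose and 10 fell in KO (edgeR, 9.61% and 9.49% of all genes). At T34, 22 rose and 10 fell, against 16.5% and 17.5%. All 14 that rose at T30 also rose at T34, and of the 10 that fell at T30, 8 fell at T34. Replicate 1 of KO T30 was closer to the earlier times than the other libraries, with a median member at -0.12 on the log2 scale to T10 against 0.23 and 0.15. Without it, 18 members rose and 10 fell at T30 (11.6% and 11.8% of all genes). All 3 libraries of KO T34 were above those of KO T10 in 23 members and below in 16, against 34.6% and 25.4% of all genes. At least 1.6-fold above T10 in KO were 2 members at T14, 3 at T18, 1 at T22 and 4 at T26, then 9 at T30 and 16 at T34. The shares of all genes at those times were 0.719%, 0.741%, 0.828%, 1.11%, 3.07% and 5.47%. Most of the early ones are the 3 members with uneven replicates described last, and without those 3 the counts were 0, 0, 0, 1, 7 and 14. All 6 of these comparisons share the KO T10 libraries.

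**Figure D3:**
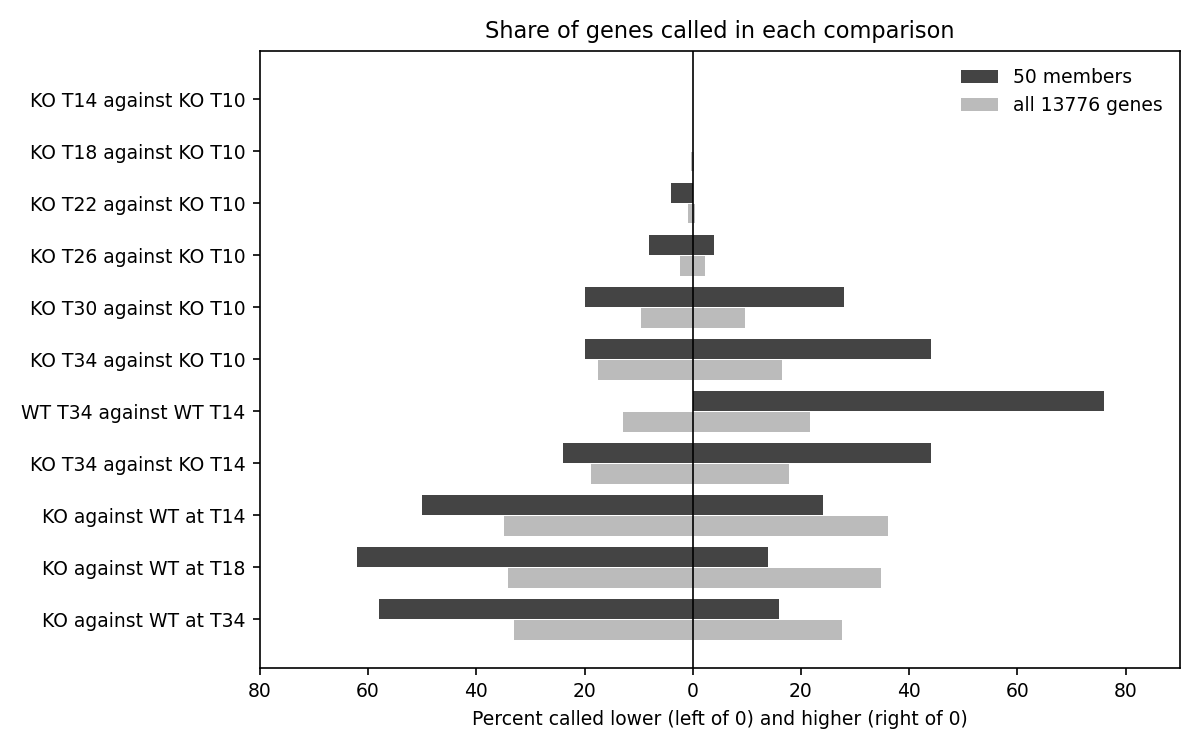
Percent of the 50 members (dark bars) and of all 13776 genes (grey bars) called lower (left of 0) or higher (right of 0) by edgeR in each comparison (rows). Members were called higher more often than all genes in WT from T14 to T34 (76% against 21.7%) and in KO at T34 against T10 (44% against 16.5%), and lower more often in KO against WT at T18 (62% against 34.1%). The rule asked for a late rise in WT only, which favours a rise in WT and lower values in KO.

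The following groups were formed from the KO call at T34 and describe how the members divide. The 22 members that rose had KO medians of 0.01, -0.07, 0.01, 0.16, 0.50 and 0.79 on the log2 scale to T10 from T14 to T34. In 12 of them the KO mean at T34 was at or above the WT mean of T30. Some of these were above that level already at KO T10, such as ENSRNOG00000004869 (9.29 against 5.32 CPM). The 10 that fell had KO medians of -0.07, -0.11, -0.18, -0.21, -0.48 and -0.44. In WT the medians of the groups that rose and fell were 0.71 and 0.67 at T18, and 1.02 and 0.86 at T34. The remaining 18 members were not called in KO at T34. The KO mean at T34 was at or above the WT mean of T30 in 6 of these 18 and in 1 of the 10 that fell. The split fixed the direction of the KO medians at T34, and those at the other times share its T10 libraries. The rule asked for a rise in WT of every member, so this division is a description only.

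The 2 members printed for a rise in KO and the 2 printed for a fall are those with the largest called changes in the KO mean of T22 to T30 against T10. ENSRNOG00000037113 was at 96.3, 96.4 and 96.3 CPM in the WT T10 libraries and at 184, 190 and 186 CPM at T30. In KO it was at 90.6, 96.4 and 104 CPM at T10, at 115, 115 and 112 CPM at T22, at 144, 190 and 193 CPM at T30 and at 210, 228 and 221 CPM at T34. The genotypes started level, KO lagged at T22 and then passed WT, and at T34 all 3 KO libraries were above the WT libraries (145, 194 and 199 CPM). Its KO rise was 0.47 ± 0.08 on the log2 scale (± SE, edgeR adjusted p = 0.000152) over T22 to T30 and 1.12 ± 0.10 at T34 (adjusted p = 1.49e-10).

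ENSRNOG00000058665 was at 1.68, 1.69 and 2.01 CPM in WT at T10, at 6.54, 4.39 and 4.81 CPM at T30 and at 9.71, 5.71 and 8.15 CPM at T34. In KO it was at 1.79, 2.03 and 2.25 CPM at T10, at 3.29, 3.02 and 2.66 CPM at T30 and at 3.51, 3.64 and 2.8 CPM at T34. The KO libraries of T30 and T34 were above those of T10 but below every WT library of the same time. The KO rise over T22 to T30 was 0.44 ± 0.14 on the log2 scale (edgeR adjusted p = 0.0491), and this call was lost in 12 of its alternatives, with an adjusted p of up to 0.274. From T14 to T34 it rose by 1.05 ± 0.24 less in KO than in WT on the log2 scale (adjusted p = 0.000784).

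ENSRNOG00000005491 ran in opposite directions in the genotypes. In WT it was at 3.14, 3.18 and 3.23 CPM at T10, at 8.79, 7.57 and 7.67 CPM at T30 and at 27.4, 7.62 and 9.6 CPM at T34, the first of these being the replicate that stands apart. KO held it at 16.4, 17.5 and 17.5 CPM at T10, at 12.4, 12.5 and 11.8 CPM at T22, at 9.98, 7.37 and 5.74 CPM at T30 and at 7.09, 6.96 and 7.05 CPM at T34. The groups did not overlap at T10, overlapped at T30, and at T34 all KO libraries were below all WT libraries. The KO change was -0.78 ± 0.18 on the log2 scale over T22 to T30 (edgeR adjusted p = 0.00541) and -1.34 ± 0.24 at T34 (adjusted p = 4.15e-05).

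ENSRNOG00000004869 first fell and then rose in KO. In WT it was at 2.31, 3.01 and 2.22 CPM at T10, at 4.76, 5.36 and 5.84 CPM at T30 and at 4.38, 5.37 and 5.16 CPM at T34. The KO libraries had 8.62, 9.9 and 9.35 CPM at T10, at 5.2, 5.5 and 5.09 CPM at T26, at 4.48, 10.3 and 8.21 CPM at T30 and at 13.6, 15.7 and 15.7 CPM at T34. The KO libraries of T26 fell within the range of the WT libraries of that time or just below it (5.24, 5.86 and 5.73 CPM), while those of T34 were far above. The KO change was -0.62 ± 0.13 on the log2 scale over T22 to T30 (edgeR adjusted p = 0.00194) and 0.63 ± 0.16 at T34 (adjusted p = 0.00263).

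**Figure D4:**
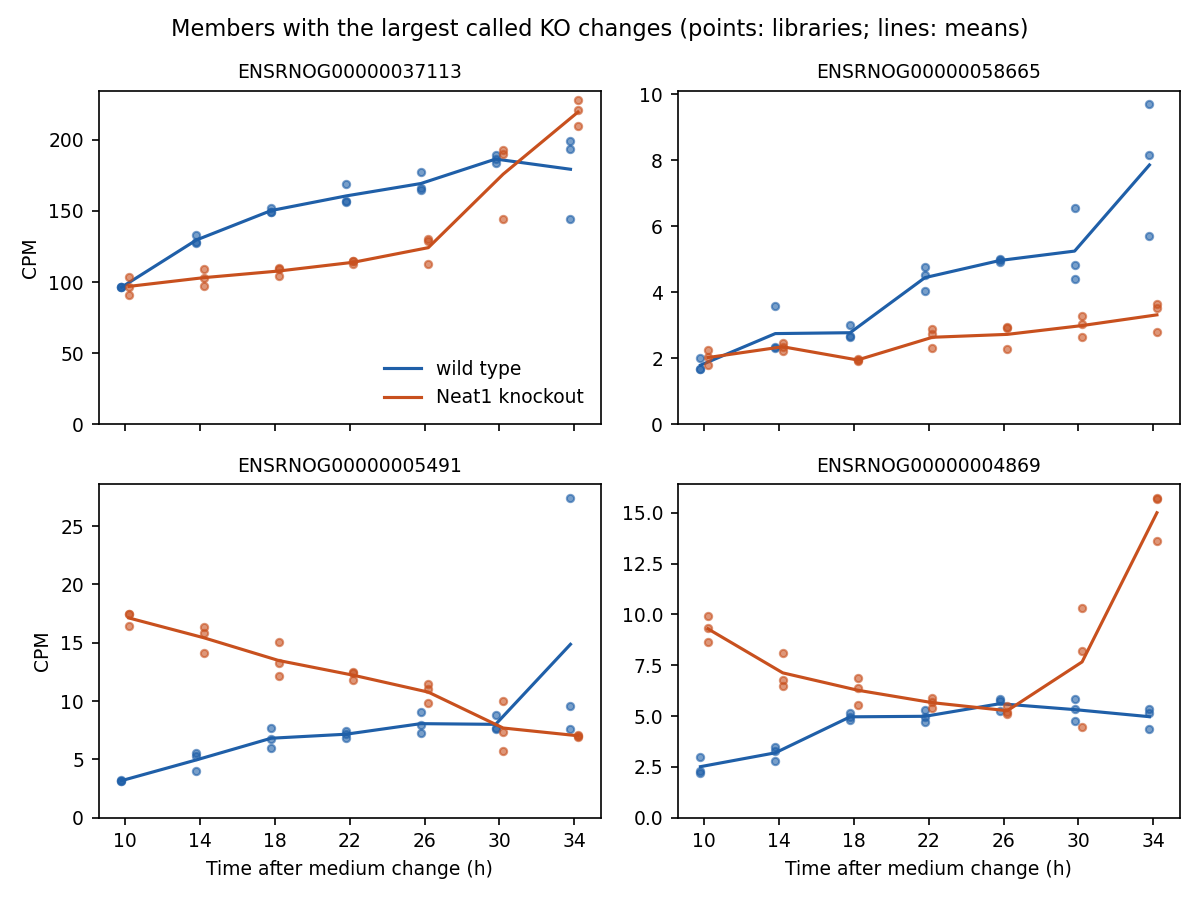
CPM (y axis, from 0) against hours after the medium change (x axis) for the 4 members with printed identifiers; points are libraries (n = 3 per group), lines the means, blue wild type and orange Neat1 knockout. The upper genes rose in KO at 34 h (1.12 and 0.65 on the log2 scale), ENSRNOG00000005491 fell (-1.34), and ENSRNOG00000004869 fell up to 26 h and was higher at 34 h (0.63).

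Other members show the same range without an identifier. The member with the highest WT counts was at 305, 301 and 319 CPM in WT at T10 and at 515, 551 and 507 CPM at T30. In KO it was at 100, 99.4 and 98.8 CPM at T10, still at 98.6, 91.5 and 102 CPM at T26, and at 178, 205 and 188 CPM at T34. It was below every WT library of the same time in each KO library, with a KO rise of 0.88 ± 0.11 on the log2 scale at T34 (edgeR adjusted p = 1.28e-07).

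The member with the largest called KO rise at T34 was at 21.5, 20.9 and 23.1 CPM in KO at T10, at 17.6, 15.5 and 18 CPM at T26, at 19.2, 63.9 and 47.7 CPM at T30 and at 75.1, 88.1 and 84.5 CPM at T34. Its WT libraries were between 26.4 and 33 CPM from T22 to T34. The late KO rise took this gene past every WT library, by a log2 fold change of 1.86 ± 0.19 to KO T10 (edgeR adjusted p = 5.15e-09). Replicate 1 of KO T30 had not joined that rise.

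A fall in KO is seen in a further member with tight replicates. It was at 74.3, 77.9 and 78.2 CPM in WT at T10 and at 139, 138 and 139 CPM at T30. The KO values were 77, 74.4 and 73.7 CPM at T10, 59.9, 64 and 65.4 CPM at T22 and 51.3, 53.6 and 58.5 CPM at T30. The genotypes overlapped at T10 and were far apart at T30. The KO change over T22 to T30 was -0.37 ± 0.04 on the log2 scale (edgeR adjusted p = 6.75e-07).

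Set against WT at the same time, the members went from level to lower in KO. The median ratio of the KO mean to the WT mean was 1.10 when T10 was compared. It was 0.825 and 0.696 at T14 and T18, 0.603 and 0.612 at T22 and T26, and 0.752 and 0.605 at T30 and T34. The KO mean was above the WT mean in 28 of the 50 members at T10, in 20 and 13 at T14 and T18, in 8 and 10 at T22 and T26, and in 12 and 16 at T30 and T34. The ratios at T10, T22, T26 and T30 rest on the WT libraries that chose the members and are a description.

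At the times that the rule did not use, the difference was tested. At T14, 12 members were higher and 25 lower in KO than in WT (edgeR), against 36% and 34.9% of all genes, with a median log2 difference of -0.27 against -0.01. At T18, 7 were higher and 31 lower, against 34.8% and 34.1%, with a median of -0.51. At T34, 8 were higher and 29 lower, against 27.6% and 33.1%, with a median of -0.77. Without replicate 1 of WT T34, 8 were higher and 27 lower at T34 (38% and 37.7% of all genes) and the median was -0.46. Most genes of these cells were called between the genotypes at each time. Over all genes the calls were spread nearly evenly between higher and lower at T14 and T18, and among the members most were lower. The rule asked for a rise and for at least 5 CPM at T30 in WT only. This choice favours members that are lower in KO, so the lean is not a test of a genotype effect on them.

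At all 3 of these times 20 members were lower in KO and 1 was higher. Over all genes, 34.9%, 34.1% and 33.1% were lower at the single times, and 36%, 34.8% and 27.6% higher. The share of all genes called alike at all 3 times was not counted. The 1 higher member was at 29.6, 30.9 and 32.9 CPM in WT at T14 and at 58.8, 31.4 and 36 CPM at T34. In KO it was at 96, 90.4 and 94.8 CPM at T14 and at 151, 141 and 145 CPM at T34, so the genotypes did not overlap at either time. Of the 12 members higher in KO at T14, 4 were higher, 5 not called and 3 lower at T34. Of the 25 lower in KO at T14, 3 were higher at T34. How often all genes kept the side they had at T14 was not counted, so these numbers only describe the members. The calls at T34 include replicate 1 of WT T34.

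A single member was nearly absent in KO. Its 21 KO libraries held 27 counts in all, with 9 libraries at 0 and at most 4 counts (0.106 CPM) in any other. In WT it was between 4.53 and 12.1 CPM, with at least 195 counts in every library. Its mean was 9.02 CPM in WT and 0.0306 CPM in KO, a ratio of 294. Whether it changed with time in KO was not detectable at these counts.

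The change from T14 to T34 was compared between the genotypes in a single model, using no library that chose the members. The rule asked for a late rise in WT and for none in KO, so the choice of members itself favours a lower change in KO. The change was lower in KO for 23 members and higher for 7 (edgeR interaction, adjusted p under 0.05), against 23.2% and 15.9% of all genes. The median difference was -0.29 on the log2 scale, against -0.05 for all genes. Without replicate 1 of WT T34, 25 were lower and 6 higher (20.8% and 18.1%). In KO alone, 22 members rose from T14 to T34 and 12 fell (17.8% and 18.8% of all genes), where in WT 38 rose and 0 fell. Of those 38, 20 also rose in KO, 10 were not called and 8 fell. This split and the ones that follow include replicate 1 of WT T34, and their shares over all genes were not counted.

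Among the 23 members whose change was lower in KO, 11 fell from T14 to T34 in KO, 11 were not called and 1 rose. All 7 whose change was higher in KO rose there. From T14 to T18, 0 members were called in KO (edgeR, 0% of all genes upward and 0.0145% downward; 1 higher and 0 lower at an unadjusted p under 0.05, 0 by DESeq2). The KO T18 libraries were all above those of T14 in 2 members and all below in 5, against 6.42% and 5.77% of all genes, where in WT 35 were all above. The difference between the genotypes over this step was not tested.

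**Figure D5:**
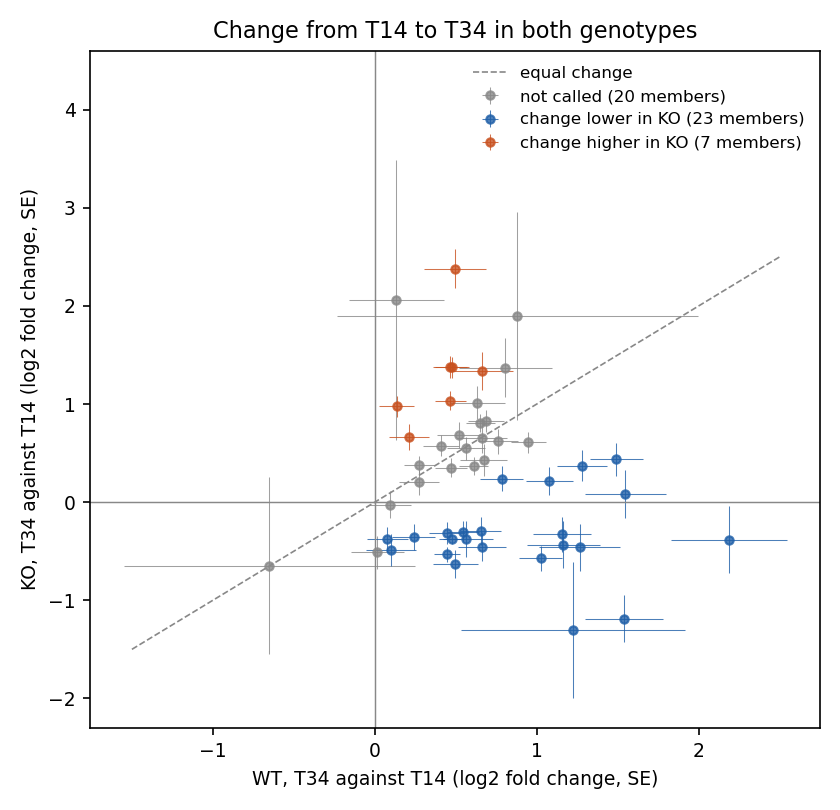
Log2 fold change from T14 to T34 in WT (x axis) and in KO (y axis) for the 50 members, with bars for the SE; the dashed line marks an equal change. The 23 members with a lower change in KO (blue) lie below the line and the 7 with a higher change (orange) above it, with 20 not called (grey).

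The members differed in how steady they were between replicates. Over the 13 groups other than WT T34 the median member had a coefficient of variation (SD as a percent of the mean) of 6.56%. In 3 members it was 95.8%, 75.9% and 53.8%. These are also the 3 whose WT libraries of T10 and of T22 to T30 overlap, and high single libraries are part of their late means. The least steady was at 24.9, 19.5 and 2.6 CPM in WT at T22 and at 61.6, 5.71 and 6.19 CPM in KO at T30, and it is the member that also met the rule in KO. Without these 3, the calls by edgeR over all libraries at an adjusted p under 0.05 were as many among the other 47, except that 22 and not 23 had a lower change in KO from T14 to T34. At an unadjusted p under 0.05, 0 of the 47 were higher in KO at T18 than at T14, and 1 was higher at T14 than at T10.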

How the data were processed

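The authors deposited whole-number read counts per gene, 1 table for each genotype, from strand-specific paired-end reads of 150 bp of total RNA. Counting was with featureCounts, per the submitters' processing notes. The aligner, the genome build, the annotation, the strand setting and any filter on genes are not given in the sources used here, so reads of overlapping genes or near-identical copies could be split in ways that cannot be seen.

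Counts of all 42 libraries were fitted in edgeR 4.0.16 (R 4.3.3) with TMM scaling, 1 mean for each of 14 groups and the quasi-likelihood test, and p-values were adjusted by Benjamini-Hochberg over all 13776 genes. The filter on low counts removed 0 genes, and all 50 members were tested. The threshold was an adjusted p of 0.05. Levels are CPM with the 2 abundant genes left out of the totals. Alternatives were other scalings, other filters, DESeq2 1.42.0, only the groups compared, and a replicate block. Each library of the groups compared was also left out, and replicate 1 of WT T34 for every comparison.

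On simulated counts for 13776 genes, of which 200 were changed by 1.6-fold, the test recovered 79% in the comparison of the KO mean of T22 to T30 with KO T10, with 17 false calls. For KO against WT at T14 it recovered 63.5%, with 8 false calls. The common coefficient of variation between libraries was 0.14.

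The members, the gene lists and the tests were chosen with earlier results of these data known. Members to be printed were to be the strongest by WT ratio, by WT level and by KO change. Since 0 identifiers matched a symbol, only 2 were printed in each direction, and the other members are described without their identifiers, chosen after their values were seen where no such rank is stated. Lists of pathways, cell type markers, promoters and motifs need symbols and were not used here. All per-sample columns of the tables were used.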

Additional observations from a re-analysis of the deposited data

Results flagged for a closer look

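The change from T14 to T34 differed between the genotypes in 30 of the 50 members by a test of the difference itself (edgeR interaction, adjusted p under 0.05), with 23 lower and 7 higher in KO. Among all genes 23.2% were called lower and 15.9% higher in that test. The members were chosen by a rise in WT only, which favours a lower change in KO.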

How the results depend on the processing

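Of 234 counts under other settings, 210 were within 1.5 times the reported one. For the 4 members with printed identifiers, 124 of 136 values kept direction and call, 12 lost the call and none changed sign. Both tallies include the fit with no filter, which repeats the reported one because the filter removed 0 genes. Counts of calls add higher and lower calls, so a shift between the directions alone does not show in them. With only the groups compared in the fit, the members called were 3 at KO T14, 12 at T18, 11 at T22 and 14 at T26 against T10 (0.86%, 5.79%, 10.1% and 16% of all genes in either direction; lower calls were 3, 10, 8 and 9). They were 0 for WT T34 against T14, 14 (4 higher and 10 lower; 10.3% of all genes) for the difference between genotypes and 25 (4 and 21; 22.2%) for KO against WT at T34; the cause was not tested. After the data were seen, that fit was repeated without replicate 1 of WT T34 and called 36 (8.2% of all genes) for WT T34 against T14, 32 (33%) for the difference between genotypes and 38 (73.1%) for KO against WT at T34. KO T18 against T10 had 1 call with library totals (0.573% of all genes) or with DESeq2 (1.02%), and WT T18 against T14 had 4 with DESeq2 (0.475%). A ratio of 1.5 in the rule gave 80 members, a ratio of 2.0 gave 9, and TMM scaling gave 46, of which 45 are members.

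Each library of the groups compared was left out in turn, as was replicate 1 of WT T34 for every comparison. This gave the following lowest and highest numbers of members called, with the lowest and highest share of all genes called over the same fits. Other libraries also enter the shared estimate of the spread, and their removal is not in these ranges. Against KO T10 they were 0 and 1 at T14 (0.0218% and 0.428%), 0 and 3 at T18 (0.203% and 2.56%), 0 and 8 at T22 (0.595% and 5.01%), 3 and 13 at T26 (2.63% and 14.6%), 17 and 31 at T30 (11.2% and 34.5%), 28 and 38 at T34 (27.9% and 50.6%), and 9 and 19 for the mean of T22 to T30 (3.94% and 19.8%). For KO against WT they were 32 and 40 at T14 (65.8% and 77.1%), 37 and 40 at T18 (63.3% and 76%), and 33 and 37 at T34 (54.7% and 75.6%). They were 0 and 11 for WT T18 against T14 (0.0218% and 1.3%), 34 and 43 for WT T34 against T14 (23.5% and 53%), 0 and 0 for KO T18 against T14 (0% and 0.0218%), 27 and 41 for KO T34 against T14 (30.5% and 53.7%), and 25 and 31 for the difference between genotypes (33.8% and 53.1%). Calls over all genes thus moved with the same settings. Membership ranged from 46 to 58 genes when a WT replicate was left out, of which 41 to 43 were among the 50, and members past the rule in KO from 0 to 1.

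The replicate numbers did not visibly pair the libraries as a whole. Deviations of same-numbered libraries had a median correlation of 0.016 over 273 pairs (-0.44 to 0.53). For pairs with different numbers it was -0.006 (-0.48 to 0.57). Pairing of only some of the libraries was not tested. With the replicate number as a block, 7 members rose and 6 fell in the KO mean of T22 to T30 (3.77% and 4.01% of all genes). At KO T30, 13 rose and 10 fell (9.73% and 9.57%). In that fit 12 were higher and 24 lower in KO at T14 (36.1% and 35.1%), and 8 and 31 at T18 (34.9% and 34.1%). The other counts of members were equal to those reported.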
